A study of Mus musculus with 3 samples.

Results

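The proteins of the cytosolic ribosome were followed here as transcripts in the cells that form the dermis of the mouse back. Members were the probes whose symbol in the deposited non-normalized table followed the naming of these proteins, that is Rpl or Rps with a number, Rplp with a number, or Rpsa. The rule used symbols and no measured values. It found 78 probes for 63 of the 18120 gene symbols on the array, 36 of the large and 27 of the small ribosomal subunit. Dorsal dermal fibroblast progenitors were cut by laser capture from 5 mouse embryos of embryonic day 12.5, heterozygous for Engrailed1Cre and for the reporter R26R, a genotype that every array shared. Their RNA was pooled, amplified and read on 3 Illumina MouseRef-8 bead arrays, called arrays 1, 2 and 3, which repeat the measurement of 1 pool. Cre follows Engrailed1, a gene of the somite region from which the dermis of the back arises, and the sources used here do not say whether the capture followed the reporter. With 1 group there was no contrast between conditions and no test. Each SD (n = 3 arrays) is technical and says nothing of differences among embryos.

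The ribosome of the cytosol translates nuclear messages, and nearly every cell needs close to the full set of its proteins, most of them in equal numbers. In vertebrates the messages of these proteins begin with a run of C and T, the 5′ terminal oligopyrimidine tract, through which growth signals acting by mTOR set their translation together. The family is known in skin and in the body plan of the mouse. Changes in Rps19 and Rps20 darken the skin, a change in Rpl24 gives a white belly spot and a kinked tail, and a change in Rpl38 alters the axial skeleton and the tail. In humans, loss of 1 copy of any of several members causes Diamond-Blackfan anaemia.

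To show that feature in the members on which the results turn, 60 bases around the annotated transcript start are given below from RefSeq (GRCm38.p6), 30 on each side and in the direction of transcription. The longest run of C and T in each is in capitals. The first 4 belong to genes that the arrays did not detect, and the last 3 to genes whose probes differed widely in signal.
Rpl14, chr9:120571487-120571546, plus strand: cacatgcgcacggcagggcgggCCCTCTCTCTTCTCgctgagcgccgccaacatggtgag
Rplp2, chr7:141447621-141447680, plus strand: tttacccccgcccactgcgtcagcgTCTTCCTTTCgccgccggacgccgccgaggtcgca
Rpl6, chr5:121204471-121204530, plus strand: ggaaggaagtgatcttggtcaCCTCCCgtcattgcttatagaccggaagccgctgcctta
Rpl3l, chr17:24727796-24727855, plus strand: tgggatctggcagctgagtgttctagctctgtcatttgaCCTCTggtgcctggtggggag
Rpl38, chr11:114668550-114668609, plus strand: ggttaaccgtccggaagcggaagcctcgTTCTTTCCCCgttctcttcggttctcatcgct
Rps24, chr14:24490648-24490707, plus strand: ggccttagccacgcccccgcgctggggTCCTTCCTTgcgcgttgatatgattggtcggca
Rpl23, chr11:97782410-97782469, minus strand: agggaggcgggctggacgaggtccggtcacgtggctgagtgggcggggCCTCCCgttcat

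The run was 14 bases long in Rpl14, 10 in Rplp2 and 10 in Rpl38, and in these 3 genes it lay across the annotated start, as did the 9 bases in Rps24. It was 6 bases in Rpl6, before the start, and 6 in Rpl23, after it. In Rpl3l, the muscle counterpart of Rpl3, it was 5. A promoter entry was found for 48 of the 63 genes, and 23 of these (47.9%) held a run of at least 8 bases in the window. The same was true of 22.1% of 17491 protein-coding genes with an entry. The longest run had at least 8 bases and also began within 5 bases of the start in 11 members (22.9%) and in 3.65% of the genes with an entry. The letters CTTTCC were present in the direction of transcription, as written above, in 8 members (16.7%, against 2.72%) and on the other strand in 1 (2.08%, against 2.21%). Any such CTTTCC lies within a run of C and T, so these counts overlap. Of the 4 undetected members with an entry, 2 held a run of at least 8 bases, and of the 44 detected members 21 did. A match describes these letters only, and the annotated start may differ from the one used in the dermis.

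The deposited tables give each probe a detection p on each array, and a low value marks a signal above the array's background. A probe counted as detected if this p was below 0.01 on each of the 3 arrays, and a gene if any of its probes met that rule. Of the 78 member probes 66 were detected (84.6%), where 37.7% of all 25697 probes were. Of the 63 genes 58 were detected (92.1%), where 43.4% of all gene symbols were. Of the members, 27 of 27 in the small subunit were detected, and 31 of 36 in the large subunit. These counts leave out genes that stand in the file under other symbols, such as Rpsa, which is given below. Among the 51 members with 1 probe 46 were detected (90.2%), where the background for genes with 1 probe was 37.7%. By array, 70 member probes passed on array 1, 67 on array 2 and 69 on array 3, where 44.9%, 39.0% and 41.6% of all probes did. Member probes that the file left without a definition were detected at 12 of 14 (background 37.3%), and those with one at 54 of 64 (background 37.9%).

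Signals are the authors' normalized bead intensities in arbitrary units, and each gene takes the value of the probe with its highest mean. Where array 2 is said to be higher or lower than the others, this is on the authors' scaling. The median difference of array 2 over the members was positive on that scaling and negative under the others, by little after quantile normalization. Other scalings were compared for such medians and not for each gene. A probe's brightness depends on its sequence as well as on its transcript, so the values do not rank the transcripts of different genes. The detected members had a median of 10564, where the 7864 detected genes of the array had 330.2. The median was 10032 for the large and 11096 for the small subunit. Of the 58 detected genes 54 lay above 1000, and 4 below it. Detected probes at 20000 or above numbered 49 on the array, and 22 of them (44.9%) were members. Between 10000 and 20000 there were 72, of which 9 were members. Under 100 there were 2009, of which 4 were members.

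**Figure D1:**
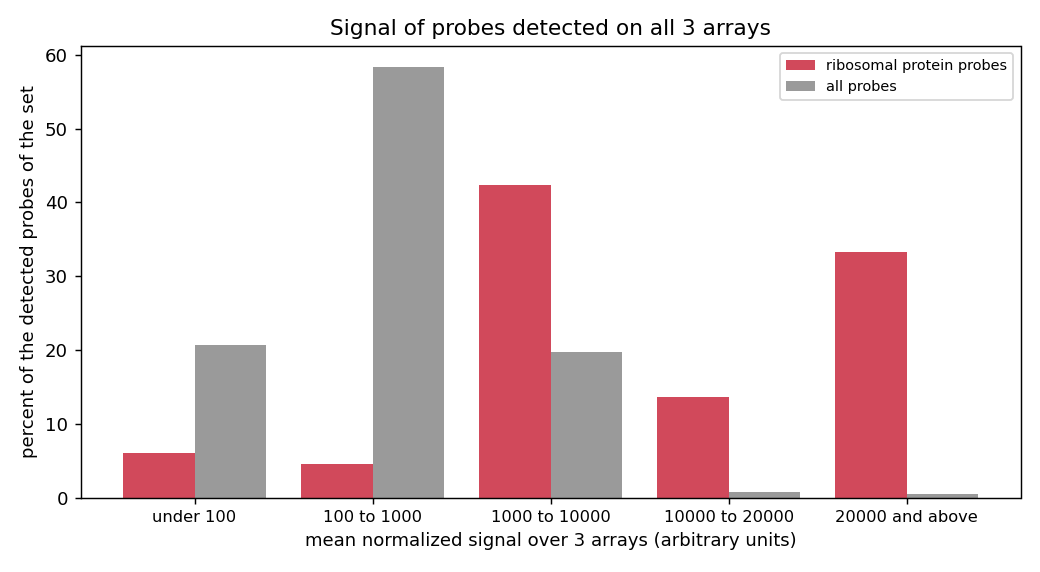
Percent of detected probes in each range of mean normalized signal (arbitrary units), for the 66 ribosomal protein probes (red) and all 9693 detected probes (grey). The range from 1000 to 10000 holds 42.4% of the members and 19.7% of all probes, and the range from 20000 upward holds 33.3% and 0.506%.

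**Figure D2:**
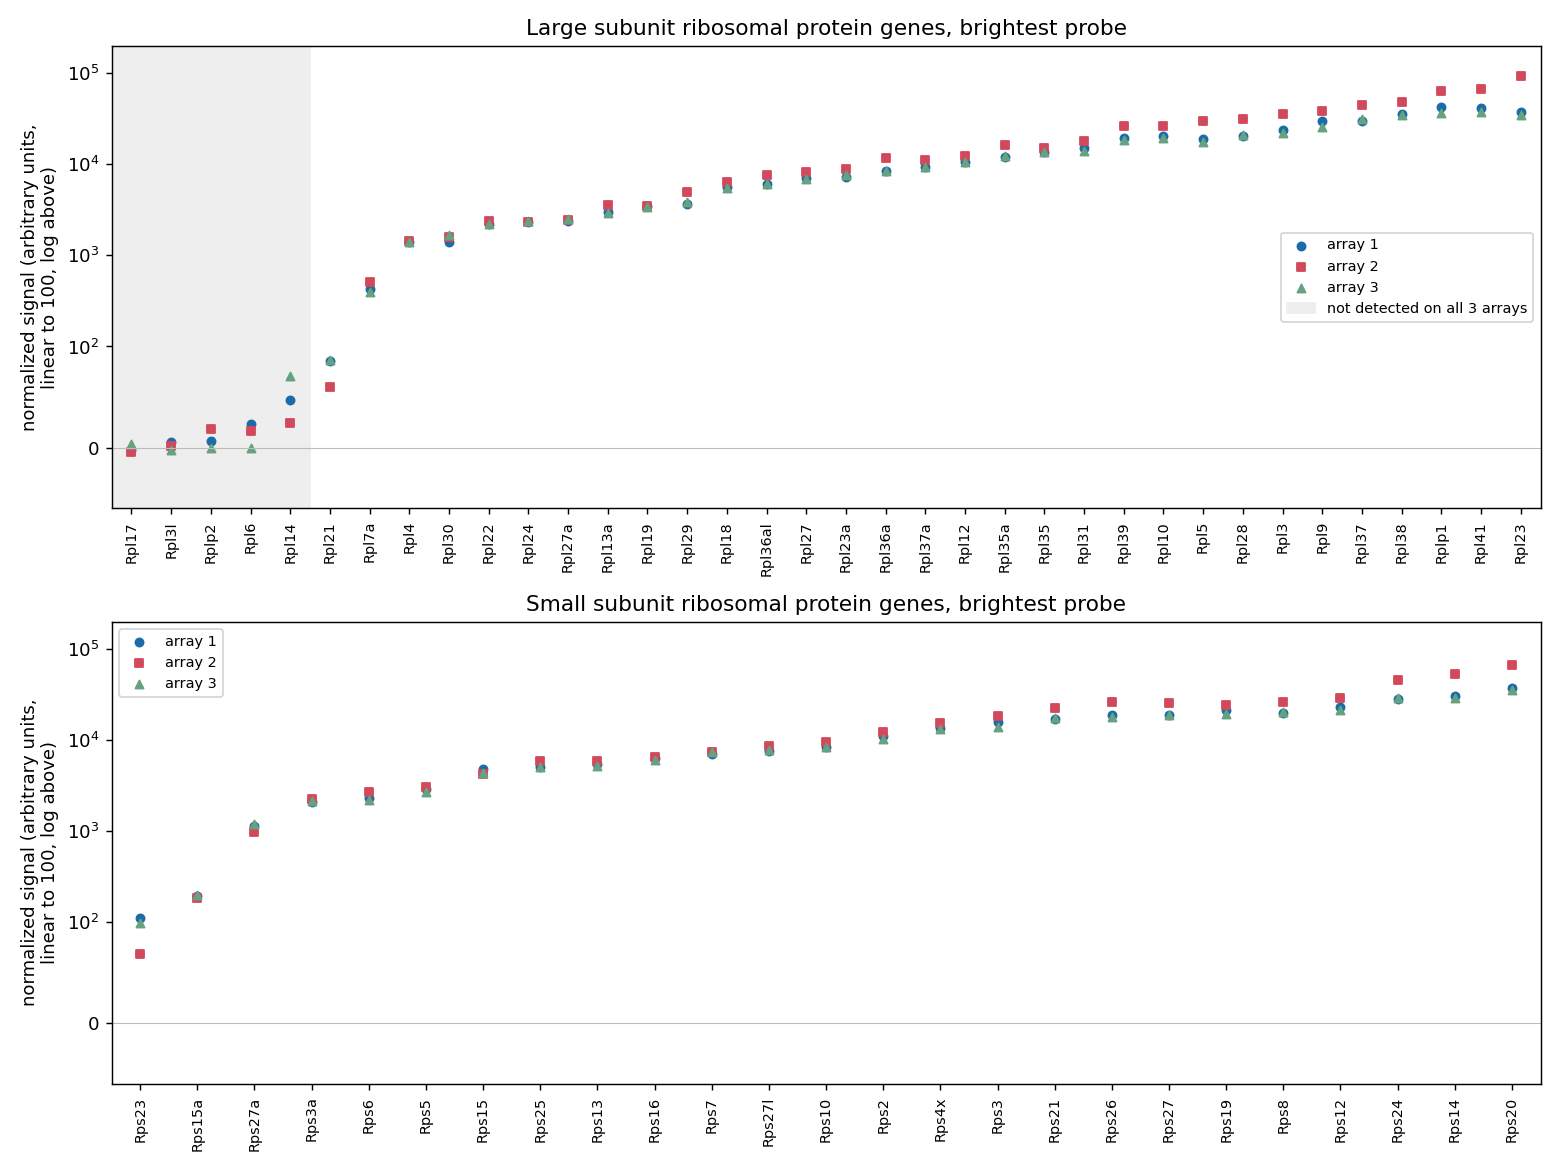
Normalized signal (arbitrary units, linear to 100 and logarithmic above) of the brightest probe of each of 36 large and 25 small subunit genes, with 1 symbol per array and genes ordered by mean; 2 of the 27 small subunit genes are not drawn. The 5 shaded genes at the left of the upper panel were not detected on all 3 arrays. On the authors' scaling, array 2 lies above arrays 1 and 3 at the bright end of both panels. After quantile normalization the median log2 difference of array 2 over the detected member probes was small, at -0.031.

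In the large subunit, the stalk recruits and activates the translation factors and is built on P0 with pairs of P1 and P2. Rplp1 was read at 43030 on array 1, 63384 on array 2 and 36762 on array 3 (mean 47725 ± 13918, SD, n = 3). Its partner Rplp2 was not detected, with 6.21, 18.1 and -0.0619 and detection p-values of 0.155, 0.120 and 0.352. The probe for P2 thus stayed at background on all 3 arrays, while the probe for P1, with which it pairs, was among the brightest members. Rplp0, which encodes P0, stands in the file under the older symbol Arbp and was no member by the rule. Its brighter probe gave 1445, 1491 and 1432, and its other probe gave 75.5, 32.4 and 85.3 and passed on 2 arrays.

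Apart from the stalk, genes of the large subunit were read over a wide span. Rpl41, a very short basic peptide, gave 41267, 67465 and 38032, with array 2 above the others. Rpl38, named above for its part in the axial skeleton, gave 36190.3, 49002 and 34680.5. Rpl5, which carries 5S ribosomal RNA and binds the p53 regulator Mdm2, gave 19072, 30177 and 17786. Rpl3, an early-assembling protein near the peptidyl transferase centre, gave 23702, 35632 and 22241. In each of these 4 genes array 2 was the highest and arrays 1 and 3 lay close together. At the dim end, Rpl7a gave 431, 516 and 395. Rpl21 was the dimmest detected gene, at 86.1, 60.3 and 86.3, and with the threshold set at 0.001 it was no longer detected. Rpl24, the gene of the belly spot mutant, gave 2339, 2314 and 2412, and its 3 arrays nearly coincided.

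Besides Rplp2, the genes Rpl17, Rpl6, Rpl14 and Rpl3l were not detected. Rpl17, which lines part of the tunnel through which the new peptide leaves, gave -1.88, -4.75 and 3.95 and passed on no array. Rpl6 gave 23.5, 16.6 and -0.0541 and passed on array 1 alone, with detection p-values of 0.00752, 0.137 and 0.352. Rpl14 gave 46.6, 24.1 and 70.6. It passed on arrays 1 and 3 with a detection p of 0 and failed on array 2 at 0.0752, so without array 2 it was called and 59 genes were detected. Rpl3l, which in the mouse is used in heart and skeletal muscle in place of Rpl3, gave 5.53, 1.36 and -1.97. Each of these 5 genes had 1 probe on the array. Their transcripts were not shown to be absent, and apart from Rpl3l each encodes a part that ribosomes in general contain.

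In the small subunit the brightest probe belonged to Rps20, the gene of a dark skin mutant, with 36801, 67034 and 34993. Rps14, which takes part in building the platform of the subunit, gave 30035, 52645 and 29125. Array 2 was the highest in both genes on the authors' scaling, and arrays 1 and 3 lay close to each other. Rps6, the target of the S6 kinases, gave 2288, 2663 and 2207. Rps27a, made as a fusion to ubiquitin, gave 1144, 969.8 and 1204 by its brighter probe. Rps15a gave 191.6, 182.3 and 198.3. Rps23, a protein of the decoding centre, was the dimmest detected gene of the subunit, at 110.3, 68.6 and 98.6, and array 2 was the lowest. In Rps27a, Rps15a and Rps23 array 2 was thus the lowest array on the authors' scaling, and in Rps6 the highest. Rpsa, which sits on the head of the subunit and is also known as the laminin receptor, stands in the file as Lamr1 and was no member by the rule. Its 2 probes gave -11.3, 12.6 and -3.87, and 18.5, -10.3 and 14.9, and neither passed on any array.

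The following 7 genes are among the members linked in humans to Diamond-Blackfan anaemia. They do not make up the whole group, and each had a detected probe (background 43.4%). Rps19, the gene most often affected, gave 21401, 24033 and 19195. Rps24 gave 28217, 45626 and 28599, and Rps26 gave 18858, 26061 and 18033. These 3 lay above 18000 on every array. Rps7 gave 6934, 7367 and 7310.3, and Rps10 gave 8419, 9597 and 8358. Rpl35a gave 12143, 16350.1 and 12237. Rpl5 is given above, and Rpl11 was not analysed here. Array 2 was the highest array in each of the 7 on the authors' scaling, by the smallest margin in Rps7.

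Copies of members that differ in sequence were read as follows. Rpl36a, on the X chromosome, gave 8516, 11901 and 8502, and Rpl36al, on chromosome 12, gave 6085, 7634 and 6077. Rps27 gave 18762, 25485 and 18928, and Rps27l, known in human cells as a target of p53, gave 7496, 8503 and 7715. Both copies were thus detected in these pairs, while in the pair of Rpl3 and Rpl3l the second was not. Rps4x, the X-linked form of S4, gave 13439, 15198 and 13107. Pairs this similar, and the many processed pseudogenes of the family, make these values uncertain, since the probes' specificity was not tested. After symbols were updated, Rpl22l1, the counterpart of Rpl22, gave 412, 375 and 458 under a clone name, and Rpl22 gave 2203, 2374 and 2207. Rpl39l, which in the mouse is best known from the testis, gave 45.8, 40.1 and 52.5 and passed on arrays 1 and 3. Rpl7l1, the counterpart of Rpl7, had 1 detected probe at 1075 ± 16.5 and another at 30.8 ± 11.9 (SD, n = 3). The other genes reached this way were Rpl34 at 9288 ± 1070.4 and Rps9, whose 4 probes were all detected at means from 8057 to 23283.

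Probes of the same gene often disagreed. Of the 12 members with several probes 6 held probes in different states, where 69.4% of all such genes with a detected probe did. These 6 were Rpl23, Rpl29, Rpl37, Rpl4, Rps19 and Rps27a. Rpl37, a zinc-binding protein of the large subunit, was read by ILMN_2696977 at 29665, 45046 and 31361. Its other probes, ILMN_1236446 at 7.20, 20.5 and 6.18 and ILMN_1223052 at 0.521, 6.94 and 6.62, stayed at background. Rps19 was read by ILMN_2862280 as given above, whereas ILMN_2754355 gave 17.7, 56.6 and 20.1 and passed on array 2 alone. The dim probe of Rps19 carried no definition in the file. Rpl29 gave 4189 ± 688 by 1 probe and 4.98 ± 2.71 by the other (SD, n = 3). Rps27a gave 1106 ± 122 and 0.586 ± 10.5, and Rpl4 gave 1418 ± 16.9 and 31.9 ± 14.0. For the dim Rpl4 probe, arrays 1 and 3 passed and array 2 did not.

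Rpl23, which also binds Mdm2, had 4 probes, each with the same definition in the file. ILMN_2946482 gave 37369, 94042 and 35311, and ILMN_2742807 gave 28232, 50108 and 27352. ILMN_1238227 gave 1392, 1262 and 1516, and ILMN_2685675 gave 56.4, 37.8 and 75.8 and failed on array 2. For the brightest 2 probes array 2 was the highest array, and for the other 2 it was the lowest. The probes of this gene thus ran from one that passed on 2 arrays alone to the brightest probe of the family.

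Among the 7 members with at least 2 detected probes, the log2 difference between the means of the brightest and the dimmest had a median of 5.03. It was 1.31 over the 1498 genes of the array with at least 2 detected probes. In Rpl38 it was 7.22, with 39958 ± 7869 and 268 ± 8.85 (SD, n = 3), the dim probe carrying no definition. In Rpl27a it was 5.33, from 2454 ± 48.9 to 61.2 ± 6.52, and in Rps24 5.03, from 34147 ± 9943 to 1044 ± 10.3. The dim probe of Rps24 carried no definition either. In Rpl31 the difference was 3.03, and in Rps3, where neither probe carried a definition, 1.56. The 2 probes of Rpl21 lay within 0.19, at 77.6 ± 15.0 and 68.1 ± 12.6. The members' brightest probes also lay higher than those of most genes, and the part of this in the difference was not tested.

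**Figure D3:**
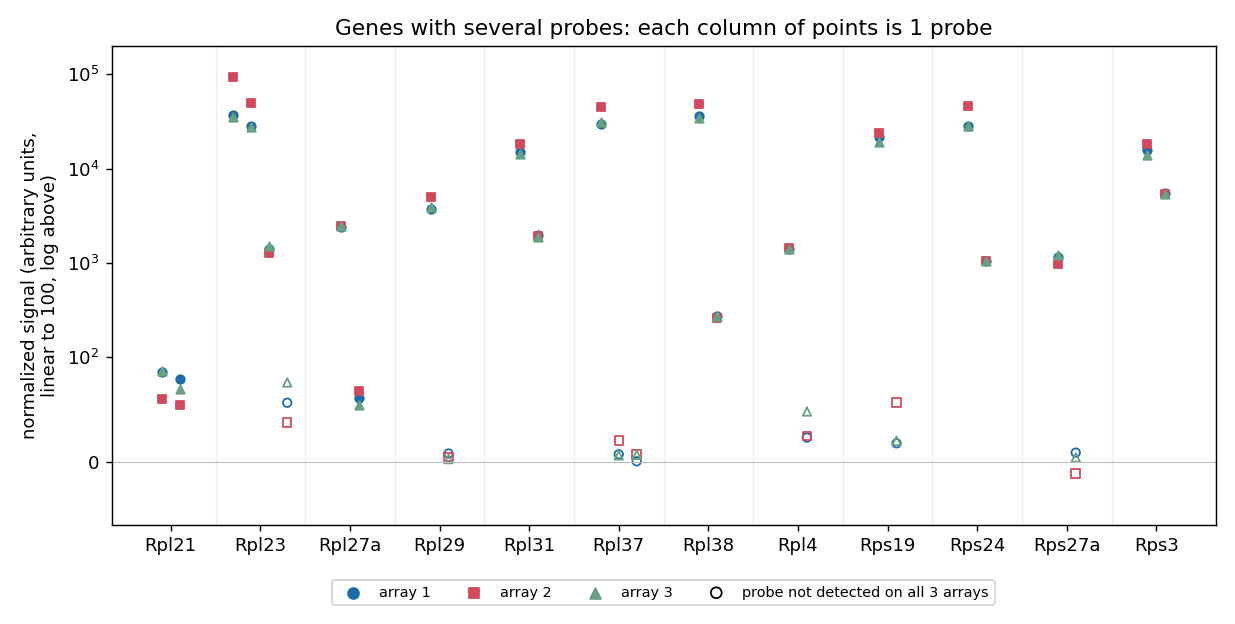
Normalized signal (arbitrary units, linear to 100 and logarithmic above) of each probe of the 12 members with several probes, with 1 column of points per probe, 1 symbol per array, and open symbols for probes not detected on all 3 arrays. Rpl23 spans 55574 to 56.7 by mean over its 4 probes, while the 2 probes of Rpl21 lie close together under 100.

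The spread between arrays was mostly that of array 2. The SD of log2 signal had a median of 0.16 over the 66 detected member probes and 0.11 over the 9693 detected probes of the array. Without array 2 the members' median was 0.044. Arrays 1 and 3 lay within 0.2 of each other on the log2 scale at 63 of the 66 probes, with a lowest difference of -0.23 and a highest of 0.25. By the authors' normalized signal, array 2 was above both others at 53 of 66 member probes (80.3%), where 43.8% of all detected probes were. Its median log2 difference from the mean of arrays 1 and 3 was 0.26 over the members and 0.018 over all detected probes. The positive sign held for the authors' scaling alone. The members' median was -1.28 on non-normalized signal and -0.89 after scaling each array to the same median. After quantile normalization it was -0.031, smaller in size than the spread of 0.033 between arrays on the authors' scaling.

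The difference moved with brightness. At a non-normalized signal of 40000 to 70000 on array 1, the median log2 difference of array 2 was 0.68 over 12 member probes and 0.57 over 13 other probes. From 20000 to 40000 it was 0.39 over 15 members and 0.40 over 35 others. From 10000 to 20000 it was 0.24 over 10 members and 0.25 over 139 others, and from 5000 to 10000 it was 0.14 over 9 members and 0.14 over 302 others. From 1000 to 5000 it was 0.029 over 13 members and 0.016 over 2508 others. Members and other probes of like brightness thus had similar values in the ranges from 1000 to 40000. No range held more than 15 members, and the differences between the sets were not tested.

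On the non-normalized scale, array 1 read the median member probe 2.83 times as high as array 2 between 1000 and 5000, and 1.96 times as high between 40000 and 70000. For the brightest Rpl23 probe the non-normalized signals were 55710, 45613 and 50616 on arrays 1, 2 and 3. For Rplp1 they were 64136, 30767 and 52692, and 64136 was the highest non-normalized value of any probe on array 1. Probes above 40000 on array 1 numbered 25, of which 12 were members. Among detected members and on the authors' scaling, the genes with the highest SD of log2 signal by their brightest probe were Rpl23 (0.79), Rps20 (0.52), Rps14 (0.48), Rpl41 (0.45), Rpl5 (0.41) and Rplp1 (0.40). Those with the lowest were Rpl19 and Rpl4 (both 0.017), Rpl27a (0.029), Rpl24 (0.031), Rps7 (0.048) and Rps3a (0.056).

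**Figure D4:**
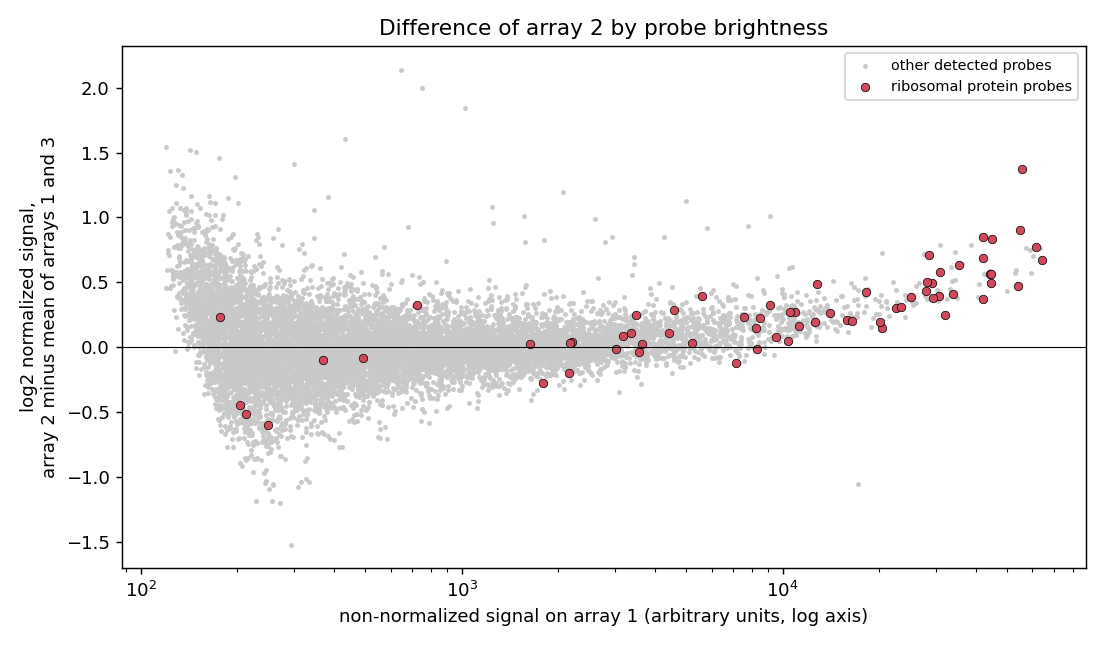
Log2 normalized signal of array 2 minus the mean of arrays 1 and 3, against the non-normalized signal of array 1 (log axis), for the 66 detected ribosomal protein probes (red) and the other detected probes (grey). Above 5000 both sets rise to the right, the 12 members above 40000 having a median of 0.68. The positive sign is that of the authors' scaling, and the median over all detected members was small, at -0.031, after quantile normalization.

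At the dim end, 7 detected member probes lay under 1000 on array 1, and array 2 was the lowest array at 5 of them and the highest at 2. The lowest were Rps23, with a log2 difference of -0.60, and the 2 probes of Rpl21, with -0.52 and -0.45. The highest was Rpl7a, with 0.32. The median over these 7 was -0.097, and over 6630 other probes under 1000 it was 0.00071.

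The genes that build ribosomes act mostly in the nucleolus. Of 37 measured ribosome biogenesis genes 30 were detected (81.1%, background 43.4%). Npm1, a nucleolar chaperone, gave 11943, 14107 and 11459, and Ncl, nucleolin, gave 1099, 1103 and 1160. Fbl, the methyltransferase of ribosomal RNA, gave 2323, 2569 and 2514, and Nop56, its partner, gave 224, 165 and 172. Dkc1, the pseudouridine synthase (-6.23 ± 5.23, SD, n = 3), Wdr12 (-12.1 ± 7.30), Bysl (3.35 ± 4.41) and Rrs1 (53.1 ± 26.8) were among the 7 not detected. When all probes of a gene had to pass, 22 of this list and 52 of the ribosomal proteins were detected, where 32.4% of all gene symbols were. Fau, which carries ribosomal protein S30 and was no member by name, gave 8229, 9611 and 8123. Rack1, the scaffold of the small subunit, gave 661, 888 and 744 under an older symbol.

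By the file's chromosome column, which was filled for 50 members, the genes lay on 17 chromosomes, with 8 on chromosome 7, 6 on chromosome 9 and 5 on chromosome 11. Of 10 dermal markers 9 were detected, with Twist2 at 2827, Col1a1 at 208.7, En1 (Engrailed1) at 46.6 and Dpt at background. Markers of other cell types were also detected, at 9 of 10 erythroid, 5 of 5 epidermal, 4 of 6 endothelial, 4 of 5 macrophage, 3 of 5 muscle and 3 of 4 neuronal genes, where 43.4% of all gene symbols were. Gata1, Kdr, Tie1, Ptprc, Myod1, Myf5 and Tubb3 were not detected, and 1 of the 5 macrophage genes had every probe detected. Hba-a1, a globin of red cells, reached 48801 ± 15629 (SD, n = 3). Each ribosomal protein value is therefore one over the whole pool, in which fewer cells of a type and less RNA per cell cannot be told apart. The part of other cell types in these values was not tested.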

How the data were processed

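RNA of 1 pool was measured on 3 technical Illumina MouseRef-8 arrays. Per the file headers, the authors deposited bead signal intensity, non-normalized and normalized, and a detection p-value for each probe and array. The sources used here do not name the scanner software or the normalization. The deposited normalized intensity was 1 slope times the non-normalized one plus 1 offset per array, with slopes of 0.672, 2.07 and 0.699. The authors' value table held the same linear, uncentred numbers, with medians of 14.9, 21.5 and 15.0. Detection p-values were equal in both tables.

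From these, members were matched by symbol, and states, means, SDs and log2 differences were computed (Python 3.11.15, pandas 2.3.3, numpy 2.4.6). No sample column was left unused, and the number of arrays limits the precision to technical error. RefSeq (GRCm38.p6) gave sequences and updated symbols. It holds 85 protein-coding genes of this naming. The files covered 62 by symbol and 70 after the update, and the other 15 were not analysed here. Members, lists and genes to name were chosen with earlier results of these data known. Named were members not detected, with probes in different states, with paralogs, of the stalk, with extreme signal or SD, or linked to the human anaemia, and the first 4 biogenesis genes per state. Some genes that the rule names are not reported here. Alternatives changed the detection threshold, the number of arrays, the scaling, the summary of probes and the symbols, and left out each array. On simulated data for 9693 probes, an SD of 0.1 was recovered as a median of 0.0836 and a shift of array 2 by 0.3 as 0.3004.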

Additional observations from a re-analysis of the deposited data

How the results depend on the processing

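The count of detected ribosomal protein genes ran from 57 at a detection p under 0.001, where Rpl21 was lost, to 60 with detection on at least 1 array, where Rpl14 and Rpl6 were gained. It was 52 with every probe of a gene required. In an alternative chosen after seeing the data, updated symbols of the naming alone gave 63. Leaving out each array in turn gave 66 to 69 probes, 58 to 59 genes, 31 to 32 large subunit genes, 27 small subunit genes and 30 to 32 biogenesis genes. It gave 4 to 6 genes with probes in different states, a median signal of 9398 to 10896 and a median SD of log2 signal of 0.044 to 0.23, the lowest without array 2. Genes with probes in different states fell to 3 with detection on at least 1 array. The median SD was 0.74 on non-normalized signal, 0.52 after scaling to the same median and 0.064 after quantile normalization. The median log2 difference of array 2 over the members was -1.28, -0.89 and -0.031 under these 3 settings. In another alternative chosen after seeing the data, the 27 members at 20000 or above on array 1 gave 0.50 by the authors' scaling, -0.71 after scaling to the same median and -0.030 after quantile normalization. The cause of these changes with scaling was not tested. No paired analysis was possible because the series holds 1 group. The 3 arrays limit every spread to technical error, and the signal of background probes limits what could be called.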
